A study of Mus musculus with 4 samples.

Results

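The 10 genes described here encode myeloid C-type lectin receptors, membrane proteins of phagocytes and their precursors: Clec7a, Clec4n, Clec4d, Clec4e, Clec5a, Clec4a1, Clec4a2, Clec4a3, Clec12a and Clec10a. They were taken by gene symbol from the array's own annotation, with every probe of each gene, which gave 14 of the 41174 probes and 10 of the 28511 genes. Granulocytes lacking miR-223 were compared with wild-type granulocytes on 4 one-colour Agilent arrays of 1 slide, 2 arrays per genotype. Both genotypes came from male C57BL/6 mice. Bone marrow had been kept for 4 days with GM-CSF at 40 ng/ml, a growth factor for granulocytes and macrophages, and the still expanding, immature granulocytes were then sorted for total RNA. The labels do not say which allele removes miR-223, how the sort was gated, or whether the 2 samples of a genotype came from separate mice, so the p-values measure only the spread between these samples. No probe names miR-223, so its loss was not checked on these arrays.

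C-type lectin receptors bind sugars, lipids and other ligands on microbes and dying cells through a shared fold. Activating members signal through an ITAM, a tyrosine motif carried in the receptor's own tail (Dectin-1) or in a partner adaptor (Dectin-2, Mincle, MCL and MDL-1), which recruits the kinase Syk and, through Card9, turns on cytokine genes. Inhibitory members such as DCIR and CLEC12A carry an ITIM, which recruits phosphatases that damp such signals. MiR-223 is a microRNA abundant in granulocytes and their precursors.

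The mature strand that miR-223 is best known for, mmu-miR-223-3p, is encoded on X at chrX:96242884-96242905 (plus strand, GRCm38.p6, RefSeq) and is shown because its loss defines the comparison. Its seed, bases 2 to 8, is in capitals.
mmu-miR-223-3p: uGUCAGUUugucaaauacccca
The DNA letters that pair with this seed, AACTGAC, occurred in 0 of the 14 receptor probes, against 153 of all 41174 probes (0.372%). The shorter match to bases 2 to 7, ACTGAC, was also in 0 of 14, against 581 probes (1.41%). A probe covers only 60 bases of a transcript, so this search says nothing of the rest of each mRNA.

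Of the array's probes for these genes, 4 have a mapped span longer than their 60 bases and a reading frame without a stop. The longer span is taken here as an exon junction, except for Clec4a2, whose printed probe is placed apart from its other probes. The 4 probes are printed 5′ to 3′ as the array files give them, with nothing marked, to show the stretch each reads. Only the Clec4n probe stands for its gene in the differences below. Clec5a and Clec4a2 rest there on brighter probes that are not printed, and Clec4a1 was not tested.
Clec5a, probe A_51_P398376: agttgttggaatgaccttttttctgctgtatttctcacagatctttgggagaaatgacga
Clec4n, probe A_51_P263471: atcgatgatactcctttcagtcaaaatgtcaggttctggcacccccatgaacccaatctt
Clec4a2, probe A_51_P444092: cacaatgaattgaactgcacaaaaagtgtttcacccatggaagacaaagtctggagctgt
Clec4a1, probe A_52_P267843: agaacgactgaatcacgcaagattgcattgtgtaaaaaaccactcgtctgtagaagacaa

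Levels below are log2 processed intensities minus the array's 75th percentile, so 0 is the brightness that 75% of probes stay under, and a level may be compared between arrays but not between probes. Differences are knockout minus wild type with the standard error (SE) of limma's moderated fit, n = 2 arrays per genotype, and adjusted p-values are Benjamini-Hochberg values over all 16787 tested genes. A gene was tested if, in at least 1 genotype, both arrays had its brightest probe well above background, the scanner software's own call. On that rule 9 of the 10 receptor genes were tested, each on all 4 arrays.

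The receptors differed in direction. In the knockout, Clec7a, Clec4n, Clec4a3 and Clec10a lay lower on both arrays than on either wild-type array, by 1.68- to 1.97-fold, while Clec5a, Clec12a and, by a narrow margin, Clec4a2 lay higher on both. Clec4d and Clec4e overlapped between genotypes. None of the 9 passed an adjusted p of 0.05 in limma, and neither did any other gene (0% of genes); the lowest adjusted p among the receptors was 0.256 and over all genes 0.0591. At an unadjusted limma p under 0.05 stood 5 of 9 receptors, 2 higher and 3 lower, where 13.6% of all tested genes did (2275 genes, 8.03% higher and 5.52% lower); the 5 became 3 without wild-type array 2, 2 without knockout array 1 and 1 without knockout array 2. Genotypes did not overlap for 7 of 9, 3 higher and 4 lower, where 48.1% of the genes with a value on every array did not (28% higher and 20.1% lower). The median difference of the 9 was -0.38 against 0.03 over all genes, and their median absolute difference was 0.61 against 0.18. That median rests on single arrays: it was -0.76 without wild-type array 1, 0.092 without wild-type array 2 and -0.097 without knockout array 1. With 2 arrays against 2, an exact two-sided permutation test cannot give a p below 0.333.

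**Figure D1:**
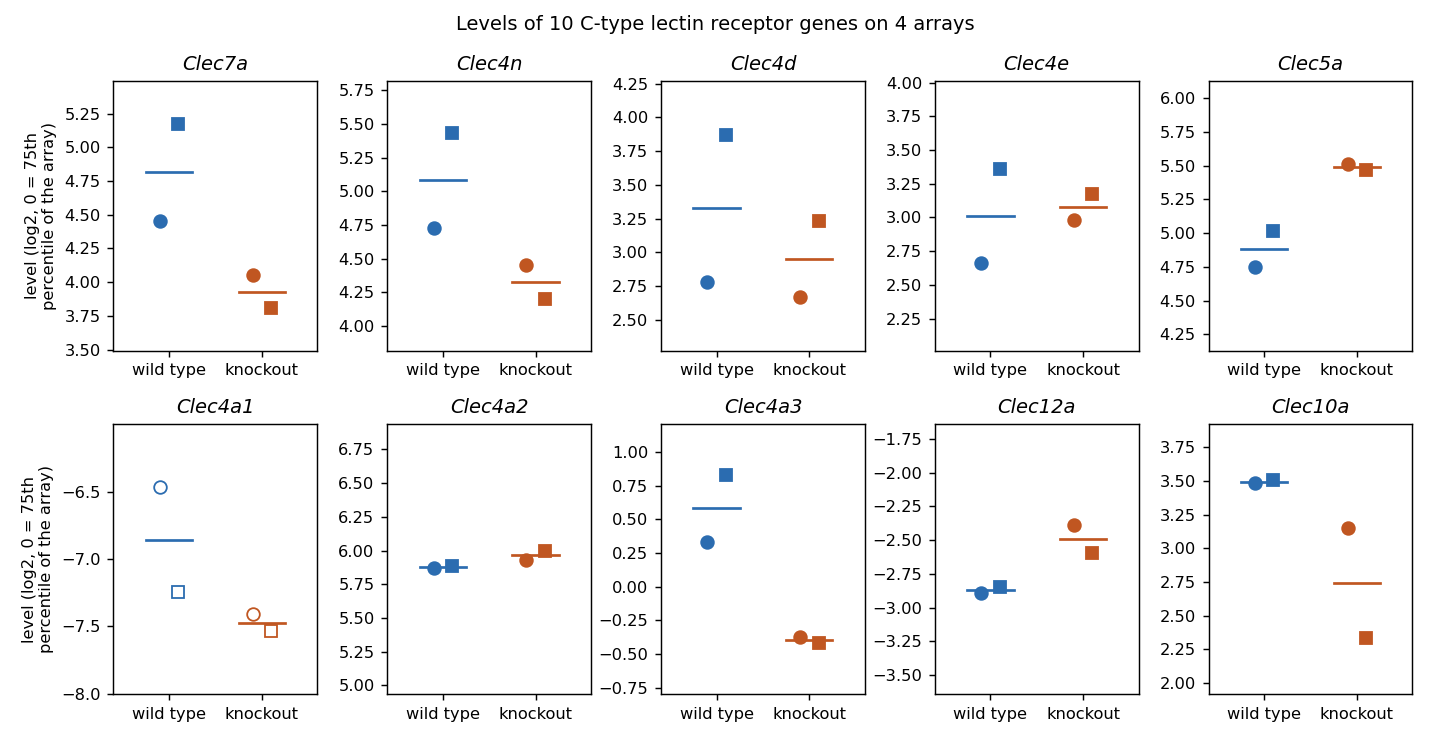
Level of each receptor gene (log2, 0 is the array's 75th percentile; each panel spans the same height on its own axis) on the 2 wild-type (blue) and 2 knockout (orange) arrays, with circles for replicate 1, squares for replicate 2, a bar at each mean and open symbols where no array was well above background. Both knockout arrays lie below both wild-type arrays for Clec7a, Clec4n, Clec4a3 and Clec10a and above them for Clec5a and Clec12a, whereas Clec4d and Clec4e overlap.

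Clec7a encodes Dectin-1, the receptor for fungal beta-glucan with its own ITAM-like tail. Its single probe (chr6:129411739-129411798, minus strand, mm9) read 4.46 and 5.17 in wild type and 4.05 and 3.81 in the knockout. Both knockout arrays were below both wild-type arrays, and the wild-type arrays differed from each other by 0.72. The difference was -0.89 ± 0.281 (1.85-fold; limma adjusted p = 0.328). It shrank to -0.53 without wild-type array 2.

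Dectin-2, which binds mannose-rich fungal walls and needs the Fc receptor gamma chain to signal, is encoded by Clec4n. The junction probe printed above (chr6:123194580-123196486, plus strand, mm9) gave 4.73 and 5.43 in wild type and 4.45 and 4.20 in the knockout. The order of the 4 arrays was the same as for Clec7a: wild-type array 2 highest, then wild-type array 1, then knockout array 1, then knockout array 2. Clec4n differed by -0.75 ± 0.279 (1.69-fold; limma adjusted p = 0.366), and by -0.40 without wild-type array 2.

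Clec4d and Clec4e encode MCL and Mincle, partner receptors for the mycobacterial lipid trehalose dimycolate. For Clec4d (chr6:123224788-123224847, plus strand, mm9) the levels were 2.78 and 3.87 in wild type and 2.67 and 3.23 in the knockout. Clec4e (chr6:123232878-123232937, minus strand, mm9) read 2.66 and 3.36 in wild type and 2.98 and 3.17 in the knockout. For both genes wild-type array 2 was the highest and the genotypes overlapped. Clec4d differed by -0.38 ± 0.430 (limma adjusted p = 0.731) and Clec4e by 0.06 ± 0.271 (limma adjusted p = 0.937). Neither sign was stable: without wild-type array 2 Clec4d was 0.17, and Clec4e was -0.29 without wild-type array 1 and -0.033 without knockout array 2. These SEs are wide beside the median SE of 0.157 over all genes.

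Clec5a encodes MDL-1, which signals through the adaptors DAP12 and DAP10 and is known as a receptor for flaviviruses. It had the largest upward difference of the tested receptors, with 3 probes that lay apart in the same way. The brightest (chr6:40527017-40527076, minus strand, mm9), read 4.75 and 5.01 in wild type and 5.51 and 5.47 in the knockout. That probe's difference was 0.61 ± 0.149 (1.52-fold; limma adjusted p = 0.277). The junction probe printed above (chr6:40532266-40535180) read 1.42 and 1.54 against 1.96 and 1.94. The dimmest probe (chr6:40525116-40525175) read -0.98 and -0.79 against -0.50 and -0.22. On all 3 probes both knockout arrays exceeded both wild-type arrays. With every probe fitted as a feature of its own, the junction probe differed by 0.47 ± 0.128 and the dimmest by 0.52 ± 0.165, neither with an adjusted p under 0.05. Since probes of 1 gene share the RNA, they are no extra replicates.

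Clec5a differed in the opposite direction to Clec7a and Clec4n. The Clec5a difference exceeded that of Clec7a by 1.49 and that of Clec4n by 1.36 on the log2 scale; these pairs were chosen after the values were seen and carry no test.

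**Figure D2:**
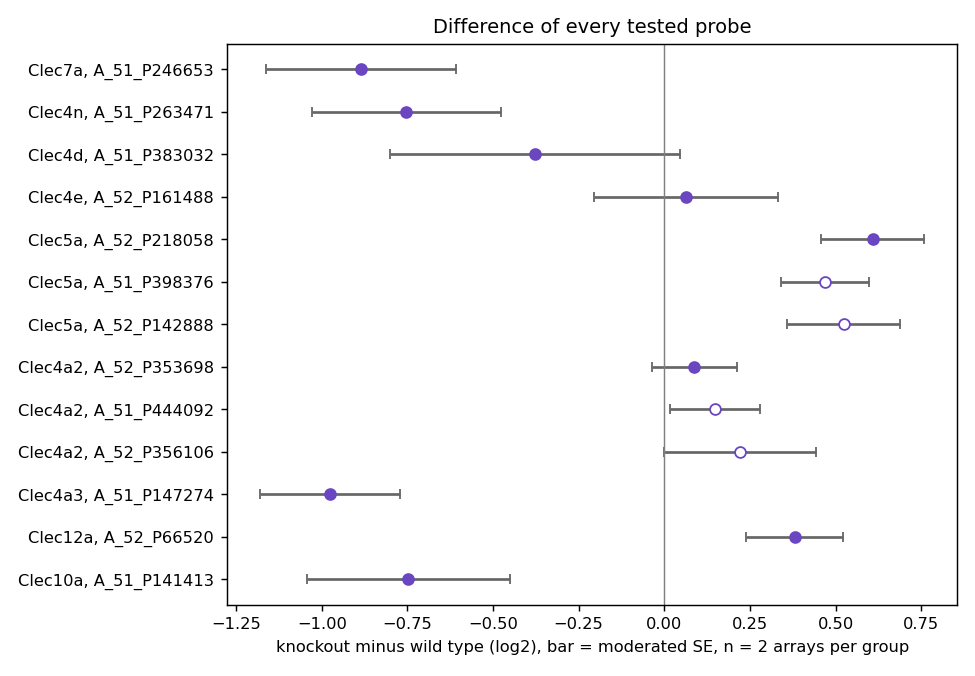
Knockout minus wild-type difference (log2) of the 13 tested probes, with bars of 1 moderated SE from limma with every probe as a feature; filled symbols are the probes that stand for the gene and open symbols the other probes. The 3 Clec5a probes fall between 0.47 and 0.61, the 3 Clec4a2 probes between 0.09 and 0.22, and Clec4a3 is lowest at -0.98.

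Clec4a3 belongs to the dendritic cell immunoreceptor (DCIR) family, in which Clec4a2 encodes DCIR itself, an inhibitory receptor with an ITIM. Clec4a3 (chr6:122919637-122919696, plus strand, mm9) read 0.33 and 0.83 in wild type and -0.37 and -0.42 in the knockout. The knockout arrays lay within 0.05 of each other and 0.70 below the lower wild-type array. Its difference, -0.98 ± 0.205 (1.97-fold; limma adjusted p = 0.256), had the smallest p of the receptors, a p that 2.64% of tested genes reached or undercut. Removing any 1 array left it between -1.22 and -0.73.

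Clec4a2, by contrast, had nearly the same level everywhere. The brightest of its 3 probes (chr6:123090676-123090735, plus strand, mm9) read 5.87 and 5.88 in wild type and 5.93 and 6.00 in the knockout. Although the genotypes did not overlap, the gap between them was 0.05 and the difference was 0.09 ± 0.121 (limma adjusted p = 0.781), which became -0.026 under quantile normalization. The Clec4a2 probe printed above read 3.72 and 3.86 against 3.92 and 3.95, a difference of 0.15 ± 0.132. The array's annotation places that probe at chr6:122954086-123018471, a span of 64386 bases that does not touch the other probes. The third probe (chr6:123093620-123093679) was dim and overlapped, at -4.52 and -5.01 against -4.40 and -4.69. The DCIR genes and their Clec4b neighbours are close copies of each other, so signal attributed to Clec4a2 or Clec4a3 may include RNA of a copy.

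Clec4a1, another DCIR-family gene (chr6:122878028-122880698, plus strand, mm9), stood well above background on 0 of the 4 arrays. Its processed intensities were 6.64 and 3.20 in wild type and 3.03 and 2.66 in the knockout, the second being a surrogate value that the scanner software assigns to spots too dim to measure. No difference was computed for it.

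Clec12a encodes an inhibitory ITIM receptor that senses uric acid crystals and dead cells. The probe (chr6:129314880-129314939, plus strand, mm9) was dim but well above background on every array, at -2.89 and -2.85 in wild type and -2.39 and -2.59 in the knockout. Both knockout arrays were higher. The difference was 0.38 ± 0.138 (1.30-fold; limma adjusted p = 0.362), and it was 0.13 under normexp background correction.

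Clec10a encodes MGL1, a receptor for galactose and N-acetylgalactosamine known from macrophages and dendritic cells, and is the only receptor here that lies off chromosome 6. Its probe (chr11:69984232-69984291, plus strand, mm9) read 3.48 and 3.50 in wild type and 3.15 and 2.34 in the knockout. The wild-type arrays were 0.021 apart, while knockout array 2 lay below knockout array 1 by 0.82. The difference was -0.75 ± 0.299 (1.68-fold; limma adjusted p = 0.387). It was -1.16 without knockout array 1 and -0.34 without knockout array 2.

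Across arrays, wild-type array 2 gave the highest level of 6 of the 9 tested receptors and wild-type array 1 of 0. Each receptor's level was centred on its mean over the 4 arrays; the median over the receptors was then -0.05 and 0.38 in wild type and -0.06 and 0.08 in the knockout. Wild-type array 2 thus stood apart, but not for this family alone. Of the lists read below, it also had the highest such median for the other lectin-like genes (0.16), the cytokines (0.62) and the ITIM list (0.05). The same held for the markers of eosinophils (1.16), mast cells and basophils (0.68), megakaryocytes (0.65), macrophages (0.42), T and NK cells (0.23) and dendritic cells (0.19). It did not for the ITAM, granulocyte, B cell and erythroid lists. Wild-type array 2 also had the fewest probes well above background, 57.6% against 62.2% to 63.5% on the others. Over all tested genes, wild-type array 1 correlated with wild-type array 2 (Pearson r = 0.990) no more closely than with knockout array 1 (r = 0.991). The lowest correlations were those of wild-type array 2 with the knockout arrays (r = 0.986 and 0.985). No spot was saturated.

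By the fixed likeness rule, the genes whose pattern over the 4 arrays came closest to that of Clec4a3 were Adamtsl5, A430027C01Rik, Plpp1, Kcnn4 and the array entry NAP017634-001. The measure was the Euclidean distance between levels centred on each gene's mean, over 4 arrays and 16786 other genes, and ran from 0.0385 for Adamtsl5 to 0.106. Kcnn4, which encodes a calcium-activated potassium channel, read 1.76 and 2.18 in wild type and 1.05 and 0.93 in the knockout. None of the other receptors was among these 5.

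The partners through which the activating receptors signal were read next. Of 31 genes for ITAM adaptors and Syk-Card9 signalling, 29 were tested, 22 higher and 7 lower, where 54.8% of all tested genes were higher. Their median difference was 0.16 against 0.03 over all genes, and 0.077 without knockout array 2. None had a limma adjusted p under 0.05, as over all genes (0%). At an unadjusted limma p under 0.05 stood 4 higher and 1 lower, against 8.03% and 5.52% of all tested genes. The genotypes lay apart for 11 higher and 2 lower, against 28% and 20.1% of the genes with a value on every array. Syk, the kinase that binds the phosphorylated ITAM, read 3.16 and 3.19 in wild type and 3.54 and 3.75 in the knockout, a difference of 0.47 ± 0.138 (limma adjusted p = 0.314). Rasgrp3, an exchange factor that activates Ras proteins, differed by 1.62 ± 0.221 (limma adjusted p = 0.240), Trim62, a ubiquitin ligase for Card9, by 0.52, and the kinase Src by -0.54. Card9 had no probe here.

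The 3 adaptors themselves were looked up for their role, after values were seen. Fcer1g, the Fc receptor gamma chain used by Dectin-2 and Mincle, read 7.07 and 7.63 in wild type and 7.93 and 8.11 in the knockout. Tyrobp, which encodes DAP12, read 6.92 and 7.31 against 7.47 and 7.65, and Hcst, which encodes DAP10, 2.85 and 3.32 against 3.57 and 3.63. Both knockout arrays were above both wild-type arrays for each. The differences were 0.66 ± 0.228, 0.44 ± 0.188 and 0.52 ± 0.199, with limma adjusted p-values of 0.345, 0.407 and 0.374. Clec5a and its adaptors were thus both higher on the knockout arrays, while Clec4n was lower where Fcer1g was higher.

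Among 11 genes listed as ITIM phosphatases and inhibitors of signalling, 4 were higher and 7 lower, with a median of -0.03. The list is not limited to proteins that act behind an ITIM. The ubiquitin ligase Cblb, which limits Dectin signalling, differed by -0.80 ± 0.179 (limma adjusted p = 0.261). It was the only 1 of the 11 with an unadjusted limma p under 0.05, where 13.6% of all tested genes had one. Inppl1 differed by -0.42, Ubash3b by 0.31 and Dok2 by -0.24. Ptpn6, the phosphatase SHP-1, read 5.35 and 5.41 against 5.42 and 5.56, a difference of 0.11 ± 0.129 (named for its role).

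Cytokines and other mediators that Dectin-1 and Mincle are known to induce lay mostly lower: 15 of 21 were tested, 4 higher and 11 lower, with a median difference of -0.76. That median was -0.46 without wild-type array 2. None passed an adjusted p of 0.05 in limma. An unadjusted limma p under 0.05 was reached by 7, all lower, where 5.52% of all tested genes were lower at that p. The genotypes lay apart for 1 higher and 8 lower, against 28% and 20.1% of the genes with a value on every array. The chemokine Cxcl1 read -0.36 and 1.41 in wild type and -2.76 and -2.23 in the knockout, a difference of -3.03 ± 0.632 (limma adjusted p = 0.256). Ptgs2, which encodes cyclooxygenase-2, differed by -2.33 ± 0.528, the cytokine Il6 by -2.09 ± 0.477 and the chemokine Ccl4 by -1.18 ± 0.256. These 4 had the smallest p-values of the list. Ccl2 (-1.88), Egr2 (-0.77), Socs3 (-0.47) and Tnf (-0.21) also lay apart and lower, and Il1rn (0.83) lay apart and higher. The remaining tested genes overlapped between genotypes, among them Il1b (0.03 ± 0.410), Ccl3 (-0.21 ± 0.637) and Egr1 (-0.76 ± 0.981), the gene at the median. Csf2, Csf3, Il12b, Il23a and Nos2 had 0 arrays well above background. The cells were not exposed to a lectin ligand as far as the labels say, and whether these levels follow from the receptors was not tested.

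Of 68 further genes with a C-type lectin-like fold, 65 had a probe and 38 were tested, 16 higher and 22 lower. Their differences ran from -1.65 (Klrd1) to 0.90 (Layn), with a median of -0.17, which was 0.059 without wild-type array 2. At an unadjusted limma p under 0.05 stood 6 higher and 8 lower, against 8.03% and 5.52% of all tested genes, with 0 at an adjusted p of 0.05. The genotypes lay apart for 10 higher and 14 lower, against 28% and 20.1% of the genes with a value on every array. The proteoglycan Vcan differed by -0.95 ± 0.126, the macrophage mannose receptor Mrc1 by -1.17 ± 0.202, Klrb1f by 0.80 ± 0.139 and the hyaluronan receptor Layn by 0.90 ± 0.180, with limma adjusted p-values from 0.240 to 0.251. Another, dimmer probe differed by -0.49 for Vcan, a smaller size, and by 0.77 for Klrb1f. A mixed direction was thus seen in the wider family as well as in the 9 myeloid receptors. The families were not tested against each other. Some of these genes, among them Vcan, Mrc1, Cd209a and Prg2, also stand in the marker lists below, so the lists are not separate observations.

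**Figure D3:**
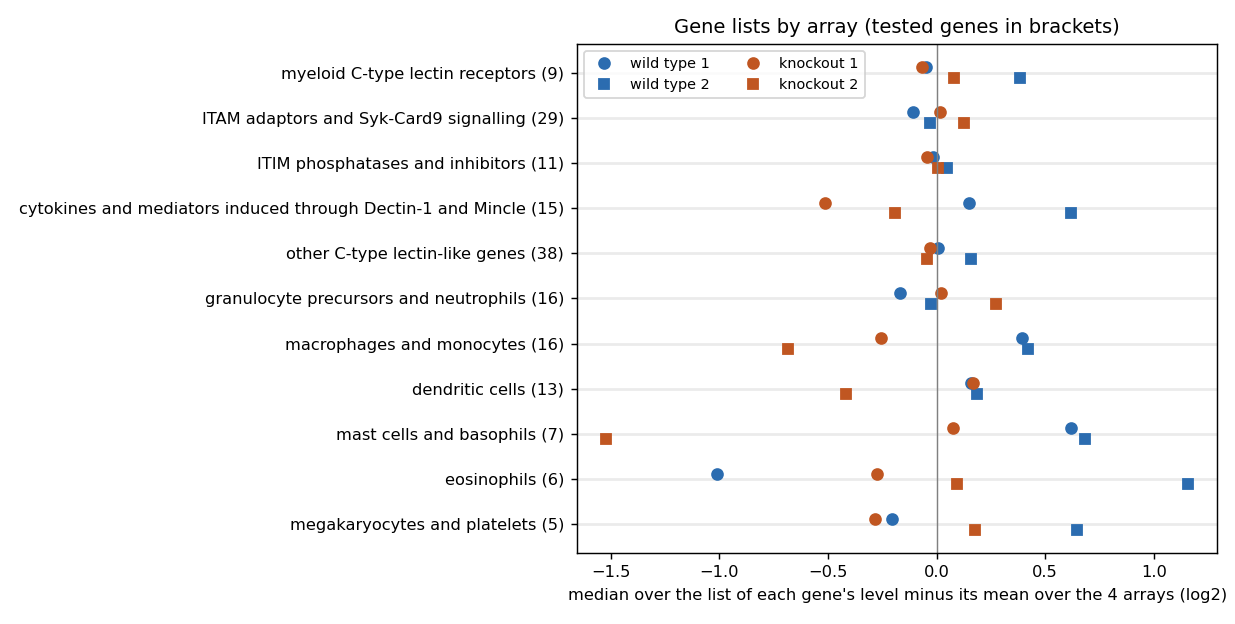
Median, over the tested genes of each list, of a gene's level minus its mean over the 4 arrays (log2), 1 symbol per array; the number of tested genes is in brackets. The receptors are highest on wild-type array 2 (0.38), the cytokine list is higher on both wild-type arrays, and the mast cell and basophil list is lowest on knockout array 2 (-1.52).

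Markers of the cell types the sorted sample could hold were read beside the receptors. The linear levels of a list were summed, in units of the array's 75th percentile; such sums can be compared between arrays but not between lists, and the brightest probe weighs most. Of 16 granulocyte markers 13 were higher, with a median of 0.21 and sums of 3805 and 4040 in wild type and 4168 and 4624 in the knockout. Of 16 macrophage and monocyte markers 13 were lower, with a median of -1.09; each was well above background on at least 1 array. Their sum was 165 and 176 in wild type and 196 and 216 in the knockout, but Ly6c1 alone made up 103 and 104 against 135 and 153, and the other 15 summed to 61.1 and 71.9 against 60.9 and 63.7. Dendritic cell markers were lower for 10 of 13 (median -0.34), with sums of 176 and 190 against 186 and 125. For mast cells and basophils 6 of 7 were lower (median -1.35), with sums of 21.7 and 22.1 against 15.1 and 5.58, and Mcpt4, Tpsab1 and Tpsb2 were not well above background anywhere. Knockout array 2 had the lowest centred median of the macrophage, dendritic cell and mast cell markers, and it was also the lowest array for 4 receptors: Clec10a, Clec7a, Clec4n and Clec4a3. Eosinophil markers summed to 11.9 and 60.9 in wild type and 20.3 and 26.6 in the knockout, with wild-type array 2 highest, the array on which 6 of the 9 receptors were highest too. The sums for B cells, T and NK cells and erythroid cells stayed below 3 on every array, and megakaryocyte markers, also highest on wild-type array 2, summed to 3.89 and 10.2 against 2.36 and 3.09. The part that other cells play in the receptors' differences was not tested, and in bulk RNA fewer cells of a type and less RNA per cell cannot be told apart.

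In RefSeq's gene order (GRCm38.p6), 9 of the 10 receptor genes lie on chromosome 6, at 3 places. Clec5a stands alone among genes that were mostly unmeasured or dim: of its 10 nearest protein-coding neighbours, 5 on each side, 2 were tested. One of them, Mgam, the intestinal starch-digesting enzyme maltase-glucoamylase, is the second gene beyond Clec5a and read 2.25 and 2.30 in wild type and 3.68 and 3.69 in the knockout. Mgam differed by 1.41 ± 0.120 (limma adjusted p = 0.219), a wider difference than that of Clec5a, and its own arrays were closer together. The other, Prss37, differed by 0.40 ± 0.238.

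The Clec4 genes form 1 cluster, in which the differences varied from gene to gene. In order, Clec4a3 differed by -0.98, Clec4b1 by 0.05 ± 0.143, Clec4a2 by 0.09, Clec4n by -0.75, Clec4d by -0.38 and Clec4e by 0.06. Clec4b1, which encodes the activating receptor DCAR, read 5.51 and 5.72 in wild type and 5.60 and 5.72 in the knockout. Outside the cluster, C3ar1, a receptor for the complement fragment C3a, differed by -0.72 ± 0.161, Necap1 by -0.32, Foxj2 by 0.30 and Slc2a3 by 0.03. Of the receptors in this cluster, Clec4a3 and Clec4n had each knockout value under each wild-type value, and Clec4a2, Clec4d and Clec4e did not.

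Clec12a and Clec7a share the third place with the natural killer receptor genes. On the Clec12a side, Klrb1f (0.80), Clec2d (0.65) and Clec2m (0.47) were higher in the knockout, as was Clec12a (0.38), while Cd69, which lies among them, differed by -0.12 ± 0.422 and overlapped. Clec1b, between Clec12a and Clec7a, differed by 0.10 ± 0.280. On the Clec7a side, Olr1, a receptor for oxidised lipoprotein, differed by -0.43 ± 0.122, Klrd1 by -1.65 ± 0.450, Tmem52b by -0.15 ± 0.451 and Gabarapl1 by 0.06 ± 0.177. On chromosome 11, Asgr2, a galactose-binding lectin gene close to Clec10a, read 5.50 and 5.43 in wild type and 5.16 and 4.24 in the knockout, with knockout array 2 lowest as for Clec10a. Of the 8 tested neighbours there, 3 were higher and 5 lower. Asgr2 differed by -0.76 ± 0.332 and Mgl2, a close copy of Clec10a, by -0.38 ± 0.255. Signal attributed to Clec10a may include RNA of Mgl2. No neighbour had an adjusted p under 0.05.

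**Figure D4:**
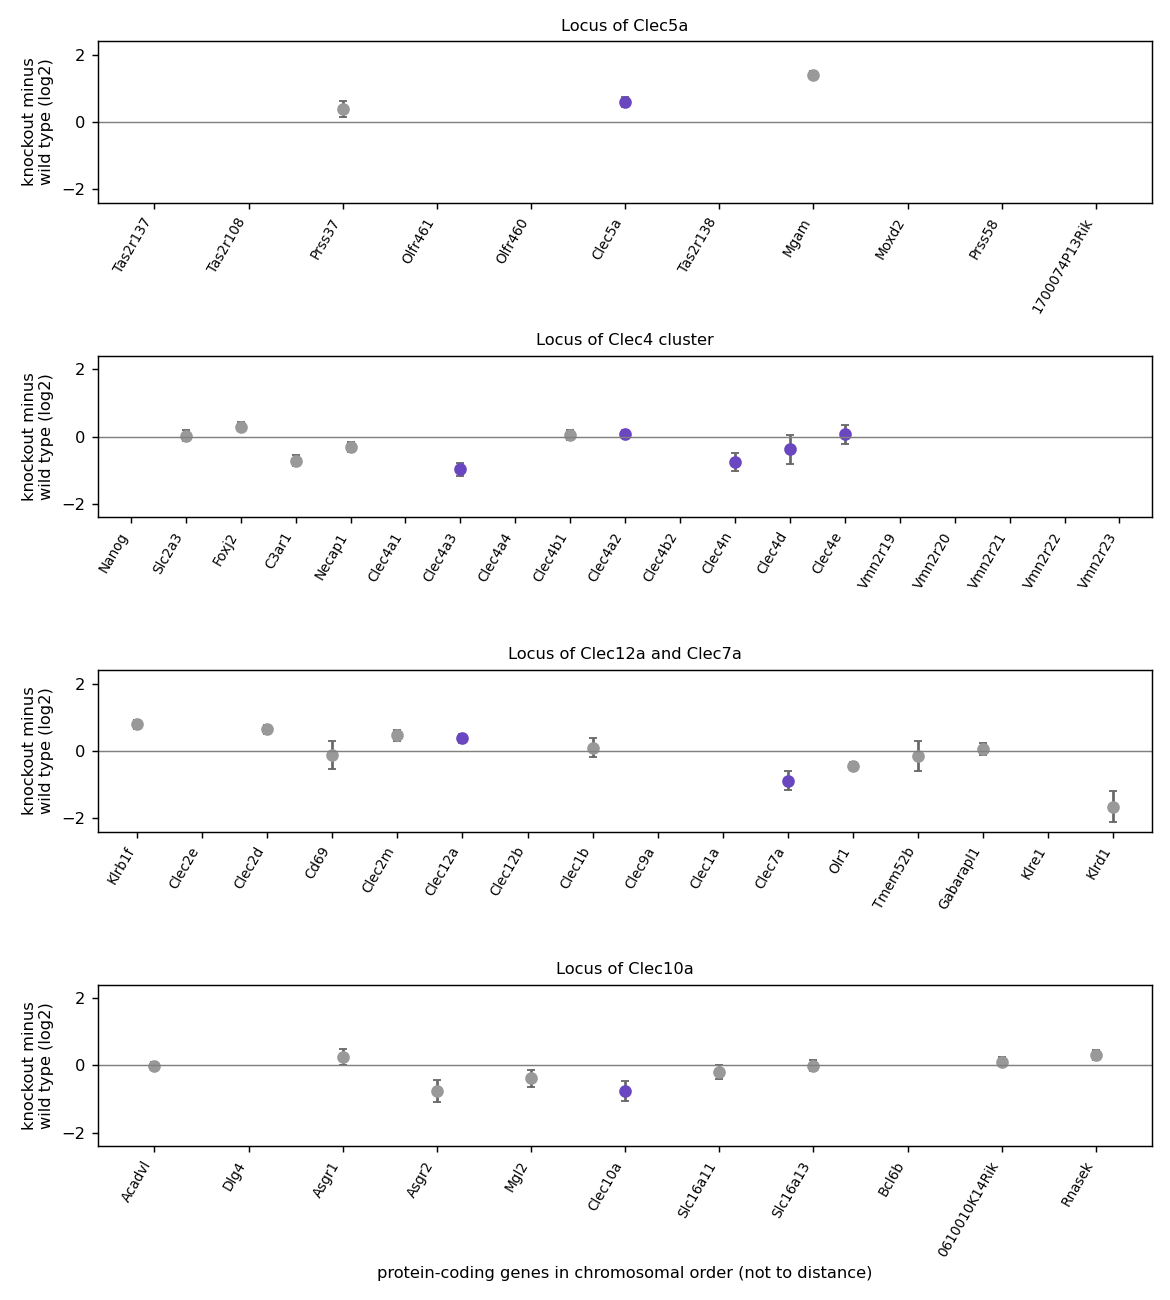
Knockout minus wild-type difference (log2, bar of 1 moderated SE) of the receptor genes (purple) and of tested neighbours (grey) in chromosomal order, not to distance; genes without a symbol were not tested or had no probe. Mgam (1.41) exceeds Clec5a (0.61), and in the Clec4 cluster Clec4a3, Clec4n and Clec4d lie below 0 while Clec4a2 and Clec4e lie near it.

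RefSeq promoter windows were at hand for 8 of the 10 genes, all but Clec4n and Clec10a. The 250 bases before the gene start were searched on both strands for 3 motifs: GAGGAA, the core of the PU box bound by the myeloid factor PU.1, TTGCNNAA for C/EBP factors, and an IRF repeat of GAAA, any 2 bases and GAAA again. The motifs and the windows printed were chosen after the values and the promoters had been seen, so the counts are a description. A PU box core was found in at least 1 window of 7 of 8 genes, the exception being Clec4a2. Counted by single window, 23.2% of all 32851 promoters held it. The 8 genes had 10 windows, and the Clec4a3 window at chr6:122952265-122952514 held 0 PU box cores. The C/EBP letters were found in Clec12a and Clec4e, against 9.56% of promoters, and the IRF repeat in 0 of 8, against 2.98%. The promoters of Clec5a, Clec7a and Clec4e are shown because these genes were higher, lower and overlapping in the knockout. Capitals mark the PU box core or its complement and, in Clec4e, the C/EBP letters that precede the second PU box.
Clec5a, chr6:40585806-40586055, minus strand, GRCm38.p6: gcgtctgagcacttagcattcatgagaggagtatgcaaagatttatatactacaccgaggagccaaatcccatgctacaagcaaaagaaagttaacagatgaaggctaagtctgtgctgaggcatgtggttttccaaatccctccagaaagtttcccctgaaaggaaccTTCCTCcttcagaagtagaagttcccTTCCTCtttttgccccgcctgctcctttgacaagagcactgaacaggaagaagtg
Clec7a, chr6:129472786-129473035, minus strand, GRCm38.p6: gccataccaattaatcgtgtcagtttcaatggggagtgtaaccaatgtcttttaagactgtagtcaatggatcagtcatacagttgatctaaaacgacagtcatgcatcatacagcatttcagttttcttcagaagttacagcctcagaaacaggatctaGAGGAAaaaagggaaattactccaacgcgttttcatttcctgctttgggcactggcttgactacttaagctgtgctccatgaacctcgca
Clec4e, chr6:123289872-123290121, minus strand, GRCm38.p6: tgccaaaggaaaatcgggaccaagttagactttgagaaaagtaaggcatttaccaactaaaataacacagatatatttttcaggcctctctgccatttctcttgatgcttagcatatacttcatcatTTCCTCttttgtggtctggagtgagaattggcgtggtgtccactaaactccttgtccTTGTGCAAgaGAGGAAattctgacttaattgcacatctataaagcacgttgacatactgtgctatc
The core was thus present in genes that lay higher (Clec5a, Clec12a), lower (Clec7a, Clec4a3) and overlapping (Clec4d, Clec4e) in the knockout.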

How the data were processed

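RNA of 4 samples was labelled with Cy3 and hybridised to 4 arrays of Agilent design 014868. Per the file headers, the processed intensity values were made with Agilent Feature Extraction 10.5.1.1, which removed background and spatial trends and gave dim spots surrogate values; probe coordinates are in build mm9. The authors' deposited log2 values of the same arrays equal the log2 processed intensity plus a constant per array (99.8% of probes within 0.01) with a median of 5.03 on each array; how they were made is not given in the sources used here.

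Flagged outlier spots were left out, log2 intensities were scaled to each array's 75th percentile, and each gene was represented by its brightest probe. Genes whose arrays were both well above background in at least 1 genotype were fitted with limma 3.58.1 (lmFit and eBayes, R 4.3.3), which was tested on simulated data first. RefSeq symbols replaced the array's where an accession matched (26888 probes by systematic name, 110 by another RefSeq accession); 14176 probes, Clec7a's among them, kept the array file's symbol. The number of arrays limits precision. The receptors, lists and tests were chosen with earlier results of these data known. Named from each list were the 4 tested genes with the smallest p, for Clec4a3 the 5 nearest in pattern, and up to 5 neighbours on each side. Alternatives covered background correction, scaling, the authors' values, the filter, the choice of probe, a replicate block and leaving out each array.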

Additional observations from a re-analysis of the deposited data

How the results depend on the processing

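Under 13 alternatives, 0 receptors had an adjusted p under 0.05, and Clec7a, Clec4n, Clec4a3, Clec10a, Clec5a and Clec12a kept their sign. Over all genes, normexp background correction gave 5 calls and fitting every probe as a feature 3. Without the filter on dim probes, 2 receptors had an unadjusted p under 0.05 and the median of all genes turned to -0.070; quantile normalization turned Clec4a2 to -0.026, and averaging probes turned the ITIM list's median to 0.0000946. When each array was left out in turn, the receptors with an unadjusted p under 0.05 numbered 1 to 5 (3 without wild-type array 2, 2 without knockout array 1, 1 without knockout array 2). The receptors' median then ran from -0.76 to 0.092 (-0.097 without knockout array 1), the other lectins' median from -0.26 to 0.059 (-0.031 without knockout array 1), Clec4d from -0.92 without wild-type array 1 to 0.17 without wild-type array 2, and Clec4e from -0.29 without wild-type array 1 to 0.41 without wild-type array 2 (-0.033 without knockout array 2). A genotype left with 1 array was assumed to vary like the other. Same-numbered arrays share only a number (2 pairs, correlation of deviations 0.17); with the replicate number as a block, 4 receptors had an unadjusted p under 0.05 and 0 an adjusted one, with Clec5a at 0.61. The causes of these shifts were not tested. Low signal limits Clec4a1 and Clec12a.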
